A study of Mus musculus with 12 samples.

Results

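The genes described here are 6 genes of the complement system, C3, C4b, C1ra, C1s1, Cfb and Serping1, in mouse embryonic fibroblasts (MEFs) with and without RTF2. They were chosen by name and found by matching the Entrez gene identifiers of the count table to mouse symbols, which gave 6 of the table's 24100 genes. All 6 passed the filter on low counts and were among the 14263 genes tested. RNA-seq was run on total RNA of MEFs immortalized with the SV40 large T antigen. WT MEFs were Rtf2+/+ and RTF2-deficient MEFs were Rtf2-/lox, a genotype with a null allele beside an allele that Cre removes. Every group, WT included, received Cre from a retrovirus 72 hrs before collection, so the WT groups also carried virus and Cre. Each genotype was represented by 2 MEF lines that came from different mothers, with littermates as WT, and each of the 4 groups by 3 libraries. The study describes the 3 libraries of a group as technical replicates, so the p-values below measure the spread between technical replicates, and the 2 lines are the only biological replicates. The 12 libraries held between 39360167 and 44695002 counted reads.

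Complement is a cascade of plasma proteins that tags microbes and damaged cells for removal. In the classical pathway the proteases C1r and C1s, bound to the recognition protein C1q, cut C4 and C2. The cut products form an enzyme that splits C3, whose larger fragment coats surfaces, and factor B makes a further C3-splitting enzyme in the alternative pathway. The liver supplies most plasma complement, but fibroblasts also make several of these proteins, and interferons and inflammatory cytokines are known to raise their transcripts in many cell types.

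The question asked of each library was how much of each transcript it held and whether loss of RTF2 moved it. Rtf2 itself, the deleted gene, measured 44.9, 44.8 and 47.2 CPM (the reads of a gene scaled by the depth of the library, after TMM scaling) in WT line 1 and 5.64, 5.44 and 6.29 CPM in RTF2-deficient line 1, in the order of replicates 1, 2 and 3, which is used throughout. In line 2 it measured 57.8, 52.9 and 50.9 CPM in WT and 6.66, 6.49 and 6.33 CPM in RTF2-deficient MEFs. Every RTF2-deficient library was below every WT library. Rtf2 fell with a log2 fold change of −3.01 (SE 0.0567, edgeR adjusted p 2.45e-11, lower in 6 of 6 libraries), and by −2.98 in line 1 and −3.05 in line 2 (adjusted p 1.34e-08 and 1.02e-08).

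Markers were then used to check the cell type. Of 10 listed fibroblast markers all were tested, and their summed level ran from 19143 to 31714 CPM over the 12 libraries, led by the matrix glycoprotein Fn1 with 5618 to 11121 CPM. The proteoglycans Dcn (0.392 to 2.10 CPM) and Lum (0.124 to 1.65 CPM), named after their values were seen, were low in every library. Macrophages and hepatocytes are the other cells best known for complement, and most of their defining markers were close to 0. The 13 macrophage markers summed to 2.63 to 10.3 CPM, led by the lysosomal protein Cd68 with 1.44 to 8.95 CPM, while Adgre1 reached at most 0.128 CPM, Ptprc 0.122 CPM and C1qa 0.142 CPM, and Aif1 had reads in 1 library. Cd68 measured 8.95, 5.18 and 6.05 CPM in WT line 2, 2.96, 2.85 and 3.82 CPM in RTF2-deficient line 2, 1.86, 1.44 and 1.69 CPM in WT line 1 and 1.77, 1.67 and 1.76 CPM in RTF2-deficient line 1. The summed level of the 13 genes was 10.3, 7.47 and 8.76 CPM in WT line 2 and 5.73, 6.72 and 5.11 CPM in RTF2-deficient line 2, without overlap, and 4.01, 2.63 and 3.62 CPM against 3.22, 3.07 and 3.83 CPM in line 1. In line 2 the median log2 fold change of the 4 genes tested among them was −0.04, and Csf1r measured 0.608, 1.17 and 0.897 CPM in WT against 1.83, 1.8 and 0.904 CPM in RTF2-deficient MEFs. Csf1r was named after its values were seen. The 8 hepatocyte markers summed to 0.941 to 2.98 CPM, led in reads over all libraries by Trf with 0.337 to 1.55 CPM. Apob ran from 0 to 1.95 CPM, Ttr was at 0 in all libraries and Alb at most 0.0478 CPM. In bulk RNA, fewer cells that make a transcript and less of it per cell cannot be told apart.

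**Figure D1:**
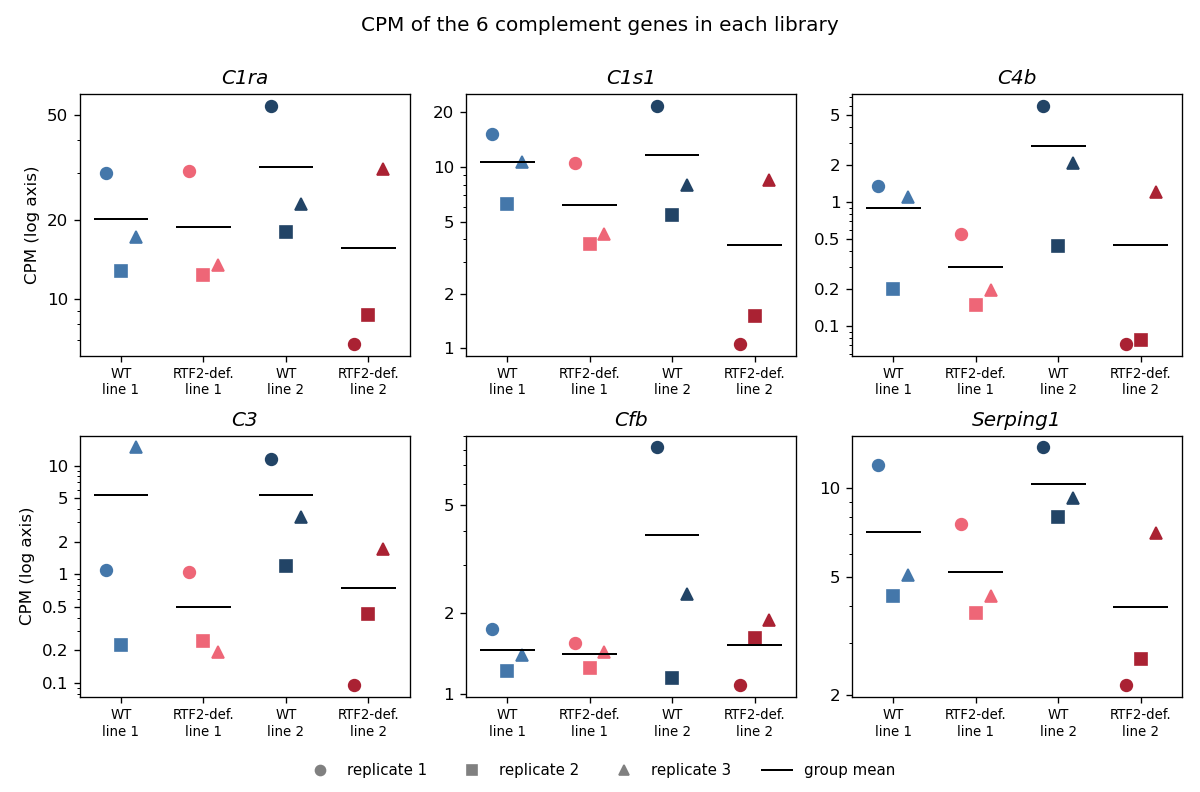
Level of the 6 complement genes in each of the 12 libraries, in CPM on a log axis, by genotype and line; each point is a library. The libraries of some groups lie far apart, as for C3 in WT line 1 (0.223 to 14.7 CPM). Those of others lie close together, as for Cfb in RTF2-deficient line 1 (1.25 to 1.55 CPM). The WT and RTF2-deficient libraries overlap for every gene over both lines.

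The members were lower in the RTF2-deficient libraries on average, but the libraries of a group differed so much that none of the 6 passed. Fitted over both lines, all 6 log2 fold changes were below 0, with a median of −1.07 against 0.00 over all genes tested. They ran from −3.10 for C3, an 8.58-fold lower level, to −0.56 for C1ra, a 1.47-fold lower level. With an interferon score (the median log2 CPM of 25 interferon-stimulated genes) as a term, C1ra (0.21) and Cfb (0.0785) were above 0. In edgeR 0 of 6 members passed, beside 8.18% of all genes tested that were lower and 4.98% that were higher. At an unadjusted p under 0.05 there were 4 members (C3, C4b, C1s1 and Serping1), beside 28.5% of all genes. DESeq2 passed 2 members as lower, C3 and C4b, beside 9.85% of all genes lower and 9.09% higher by that tool. The highest and lowest library of a group differed from 1.24-fold, for Cfb in RTF2-deficient line 1, to 66.0-fold, for C3 in WT line 1. The same libraries were high for most members, so the values of each library are given first.

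C1ra and C1s1 encode the serine proteases C1r and C1s of the first component. C1ra measured 30.1, 12.8 and 17.2 CPM in WT line 1, 30.6, 12.3 and 13.4 CPM in RTF2-deficient line 1, 53.9, 17.9 and 22.9 CPM in WT line 2, and 6.76, 8.70 and 31.2 CPM in RTF2-deficient line 2. It was highest in WT line 2 replicate 1 and lowest in RTF2-deficient line 2 replicate 1, and the genotypes overlapped in both lines. C1s1 measured 15.1, 6.27 and 10.6 CPM in WT line 1, 10.5, 3.78 and 4.29 CPM in RTF2-deficient line 1, 21.7, 5.45 and 7.98 CPM in WT line 2, and 1.06, 1.51 and 8.50 CPM in RTF2-deficient line 2. The same libraries were at the top and the bottom, and RTF2-deficient line 2 replicate 3 was above 2 of the 3 WT libraries of its line for both genes. Group means in line 2 were 31.6 ± 19.5 and 15.5 ± 13.6 CPM (SD, n = 3) for C1ra in WT and RTF2-deficient MEFs, and 11.7 ± 8.73 and 3.69 ± 4.17 CPM for C1s1. In line 1 they were 20.0 ± 9.0 and 18.8 ± 10.3 CPM for C1ra, and 10.7 ± 4.43 and 6.19 ± 3.75 CPM for C1s1. By genotype the log2 fold change was −0.56 for C1ra (SE 0.451, edgeR adjusted p 0.441) and −1.22 for C1s1 (SE 0.544, adjusted p 0.164), neither of which passed. Without WT line 2 replicate 1 these were −0.22 and −0.81, and without RTF2-deficient line 2 replicate 3 they were −0.89 and −1.70.

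C4b encodes the main C4 of the mouse, the substrate of C1s. Its level was 1.36, 0.198 and 1.11 CPM in WT line 1, 0.549, 0.147 and 0.195 CPM in RTF2-deficient line 1, 5.95, 0.441 and 2.08 CPM in WT line 2, and 0.0722, 0.0770 and 1.2 CPM in RTF2-deficient line 2. The 2 lowest of these stand for 3 reads each. WT line 2 replicate 1 was the highest by far, and replicate 3 of RTF2-deficient line 2 lay above replicate 2 of WT line 2, so the genotypes overlapped. Group means were 0.890 ± 0.612 CPM in WT line 1, 0.297 ± 0.220 CPM in RTF2-deficient line 1, 2.82 ± 2.83 CPM in WT line 2 and 0.449 ± 0.649 CPM in RTF2-deficient line 2 (SD, n = 3). The log2 fold change by genotype was −2.14 (SE 0.802, edgeR adjusted p 0.103), which did not pass, while DESeq2 gave −2.12 (adjusted p 0.0306). Leaving out a library gave −2.83 to −1.51, nearest 0 without WT line 2 replicate 1.

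C3 is the component on which all complement pathways meet. It measured 1.10, 0.223 and 14.7 CPM in WT line 1, 1.05, 0.245 and 0.195 CPM in RTF2-deficient line 1, 11.4, 1.19 and 3.35 CPM in WT line 2, and 0.0962, 0.436 and 1.72 CPM in RTF2-deficient line 2. WT line 1 replicate 3 and WT line 2 replicate 1 stood above all others, the highest and lowest library of WT line 1 differed 66.0-fold, and the other libraries of the genotypes overlapped. Group means were 5.35 ± 8.13 and 0.497 ± 0.480 CPM in WT and RTF2-deficient line 1 and 5.32 ± 5.39 and 0.750 ± 0.855 CPM in line 2 (SD, n = 3). C3 had the lowest adjusted p of the members by genotype, with a log2 fold change of −3.10 (SE 0.981, edgeR adjusted p 0.0578), and did not pass. DESeq2 gave −3.12 (adjusted p 0.011). Single libraries decided the value: without WT line 1 replicate 3 it was −1.89 (adjusted p 0.195), without WT line 1 replicate 2 it was −3.33 (adjusted p 0.0345), and without RTF2-deficient line 2 replicate 3 it was −3.75 (adjusted p 0.0428).

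Cfb encodes factor B, the protease of the alternative pathway's C3-splitting enzyme. Its level was 1.74, 1.21 and 1.40 CPM in WT line 1, 1.55, 1.25 and 1.44 CPM in RTF2-deficient line 1, 8.16, 1.15 and 2.34 CPM in WT line 2, and 1.08, 1.62 and 1.88 CPM in RTF2-deficient line 2. WT line 2 replicate 1 stood alone, and the 11 other libraries lay between 1.08 and 2.34 CPM with the genotypes intermixed. Group means were 1.45 ± 0.269 and 1.41 ± 0.152 CPM in WT and RTF2-deficient line 1 and 3.88 ± 3.76 and 1.53 ± 0.405 CPM in line 2 (SD, n = 3). The log2 fold change by genotype was −0.71 (SE 0.433, edgeR adjusted p 0.303), which did not pass. Without WT line 2 replicate 1 it was −0.10 by genotype and −0.18 in line 2.

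Serping1 encodes the C1 inhibitor, a serpin that inactivates C1r and C1s. It measured 11.9, 4.31 and 5.09 CPM in WT line 1, 7.59, 3.78 and 4.32 CPM in RTF2-deficient line 1, 13.7, 8.0 and 9.30 CPM in WT line 2, and 2.17, 2.64 and 7.07 CPM in RTF2-deficient line 2. In line 2 every WT library was above every RTF2-deficient library, the only such separation among the 6 members in any comparison of 3 against 3 or 6 against 6 libraries, and 15.5% of all genes tested had it in that direction, while 7.03% passed as lower in edgeR. In line 1 the genotypes overlapped. Group means were 7.11 ± 4.20 and 5.23 ± 2.07 CPM in WT and RTF2-deficient line 1 and 10.4 ± 3.01 and 3.96 ± 2.71 CPM in line 2 (SD, n = 3). Its log2 fold change was −0.91 by genotype (SE 0.372, edgeR adjusted p 0.131) and −1.38 in line 2 (SE 0.507, adjusted p 0.102), and neither passed. DESeq2 passed it in line 2 (adjusted p 0.0285).

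Taken by line, the fold changes were larger in line 2 for 5 of the 6 members, but the difference between lines did not pass. In line 1 the median log2 fold change of the members was −0.61 against 0.01 over all genes, and in line 2 it was −1.52 against 0.00. In line 1 the values were −3.41 for C3, −1.57 for C4b, −0.79 for C1s1, −0.44 for Serping1, −0.09 for C1ra and −0.04 for Cfb, with edgeR adjusted p from 0.32 to 0.989. In line 2 they were −2.81 for C3, −2.62 for C4b, −1.66 for C1s1, −1.38 for Serping1, −1.35 for Cfb and −1.02 for C1ra, with adjusted p from 0.102 to 0.321. So 0 of 6 members passed in either line. In line 1, 1 member (C3) was at an unadjusted p under 0.05 in edgeR, beside 13.9% of all genes, with 2.52% of all genes passing as lower and 0.68% as higher. There DESeq2 passed 0 members, beside 4.22% of all genes lower and 1.82% higher. In line 2, 3 members (C4b, Cfb and Serping1) were at an unadjusted p under 0.05, beside 27.8% of all genes, with 7.03% of all genes passing as lower and 5.42% as higher in edgeR. There DESeq2 passed 1 member as lower, beside 9.58% of all genes lower and 8.62% higher. The interaction of genotype and line passed for 0 of 6 members in edgeR (adjusted p 0.804 to 0.996), with 0 at an unadjusted p under 0.05, beside 8.49% of all genes, and 0 by DESeq2. Over all genes 0.533% were lower and 0.757% higher in edgeR, and 1.18% and 1.68% in DESeq2.

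Within lines the values rested on single libraries. Without RTF2-deficient line 2 replicate 3, 4 members passed in line 2 in edgeR, at −5.17 for C4b (adjusted p 0.0287), −2.01 for C1ra (0.0421), −3.17 for C1s1 (0.0174) and −2.09 for Serping1 (0.0183). More genes of all kinds passed there as well, 2372 of 14453 tested, against 1776 of 14263 with all 12 libraries. Without WT line 2 replicate 1 the values in line 2 were nearer 0, at −1.57 for C3, −1.45 for C4b, −0.85 for C1s1, −0.39 for C1ra and −0.18 for Cfb. Without WT line 2 replicate 2, Cfb passed in line 2 at −1.78 (edgeR adjusted p 0.0317) and between the WT lines at 1.85 (adjusted p 0.0198). In those fits 1424 of 14474 genes passed in line 2 and 2203 between the WT lines. In line 1 the fold change of C3 was −0.42 without WT line 1 replicate 3. An arm left with 2 libraries was assumed to vary like the others.

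**Figure D2:**
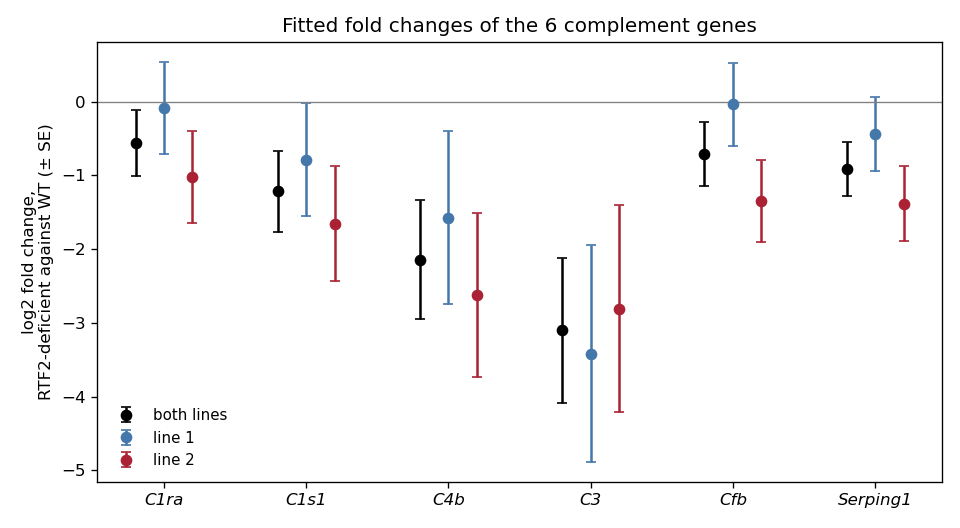
Log2 fold change of each member in the edgeR fit, RTF2-deficient against WT over both lines and in each line, with bars of 1 standard error. All points lie below 0, and none passed at an adjusted p under 0.05.

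The 2 lines were also compared within each genotype, since they are the biological replicates. Between the WT lines the median log2 difference of the members, line 2 against line 1, was 0.60 against 0.02 over all genes. Cfb was 1.42 higher in line 2 (SE 0.559, edgeR adjusted p 0.122), C4b 1.66 higher (SE 1.05, adjusted p 0.345) and C3 −0.01 (adjusted p 0.999). There 0 of 6 passed in edgeR, with 1 (Cfb) at an unadjusted p under 0.05, beside 28.1% of all genes, and 0 by DESeq2, while 7.31% of all genes were lower and 6.7% higher in line 2 in edgeR, and 10.3% and 9.01% in DESeq2. Between the RTF2-deficient lines the median was −0.08 against 0.01 over all genes, and 0 of 6 passed in edgeR (adjusted p 0.771 to 0.965), with 0 at an unadjusted p under 0.05, beside 13.4% of all genes, and 0 by DESeq2, while 0.841% of all genes were lower and 1.09% higher in edgeR, and 2.54% and 2.38% in DESeq2.

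The spread inside groups was itself a feature of these genes. The SD of log2 CPM around the group means was 1.99 for C3, 1.56 for C4b, 1.07 for C1s1, 0.865 for C1ra, 0.747 for Cfb and 0.684 for Serping1. Among genes of like mean level, the share with a smaller spread was 99.5% of 1668 for C3, 99.1% of 1418 for C4b, 98.9% of 2558 for C1s1, 98.7% of 4162 for C1ra, 95.9% of 2320 for Serping1 and 91.9% of 1516 for Cfb. The median spread of those genes was 0.285 for C3 and 0.141 for C1ra. In RTF2-deficient line 2 the highest library exceeded the lowest 8.03-fold for C1s1, and in WT line 2 the highest exceeded the lowest 7.12-fold for Cfb.

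The libraries of a group also differed in interferon-stimulated transcripts. The interferon score was 3.78, 0.545 and 1.38 in WT line 1, 1.71, 0.233 and 0.791 in RTF2-deficient line 1, 7.88, 4.52 and 6.28 in WT line 2, and 1.15, 3.11 and 6.44 in RTF2-deficient line 2. The summed level of the 25 genes was 539, 134 and 173 CPM in WT line 1, 234, 133 and 136 CPM in RTF2-deficient line 1, 8581, 848 and 2434 CPM in WT line 2, and 217, 409 and 3292 CPM in RTF2-deficient line 2. It was highest in WT line 2 replicate 1, the library with the highest C4b, C1ra, C1s1, Cfb and Serping1. The gene of this list with most reads, the antiviral membrane protein Bst2, ran from 15.2 CPM in RTF2-deficient line 1 replicate 2 to 780 CPM in WT line 2 replicate 1.

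Within each group, C4b, C1ra, C1s1, Cfb and Serping1 put the 3 libraries in the same order as the score, in 4 of 4 groups. For C4b in RTF2-deficient line 2, replicates 1 and 2 held 3 reads each. Their order there came from the scaling by depth alone and shows no difference in C4b. C3 did so in 2 of 4 groups and was highest with the score in 3 of 4. Among all genes tested, 2.50% had the order of the score in all 4 groups and 2.69% the opposite order, and among the 4838 genes with a mean level in the members' range these were 2.89% and 1.51%. The 12 libraries share groups, lines and preparations. C3 departed from the order in both line 1 groups. In RTF2-deficient line 1, replicates 2 and 3, at 0.245 and 0.195 CPM, were in the reverse order of their scores. These stand for 10 and 8 reads, too few to set an order. In WT line 1 replicate 3 C3 measured 14.7 CPM at a score of 1.38. In that WT library the acute-phase genes Lcn2 (2.05 CPM), Saa3 (2.61 CPM) and Hp (1.45 CPM) were at their highest, and the chemokine Cxcl5 measured 15.2 CPM against 0.334 and 0.149 CPM in the other WT line 1 libraries. But Cxcl5 was higher in WT line 2, at 27.2, 33.3 and 34.5 CPM, also in replicate 2, where C3 measured 1.19 CPM. Of the same list Ptx3 (86.3 CPM), Il6 (0.362 CPM) and Socs3 (13.4 CPM) had their WT line 1 lowest in replicate 3. Apart from Ptx3, the genes of this list were chosen after their values were seen. The part of interferon signalling or of acute-phase signalling in the levels of the members was not tested.

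**Figure D3:**
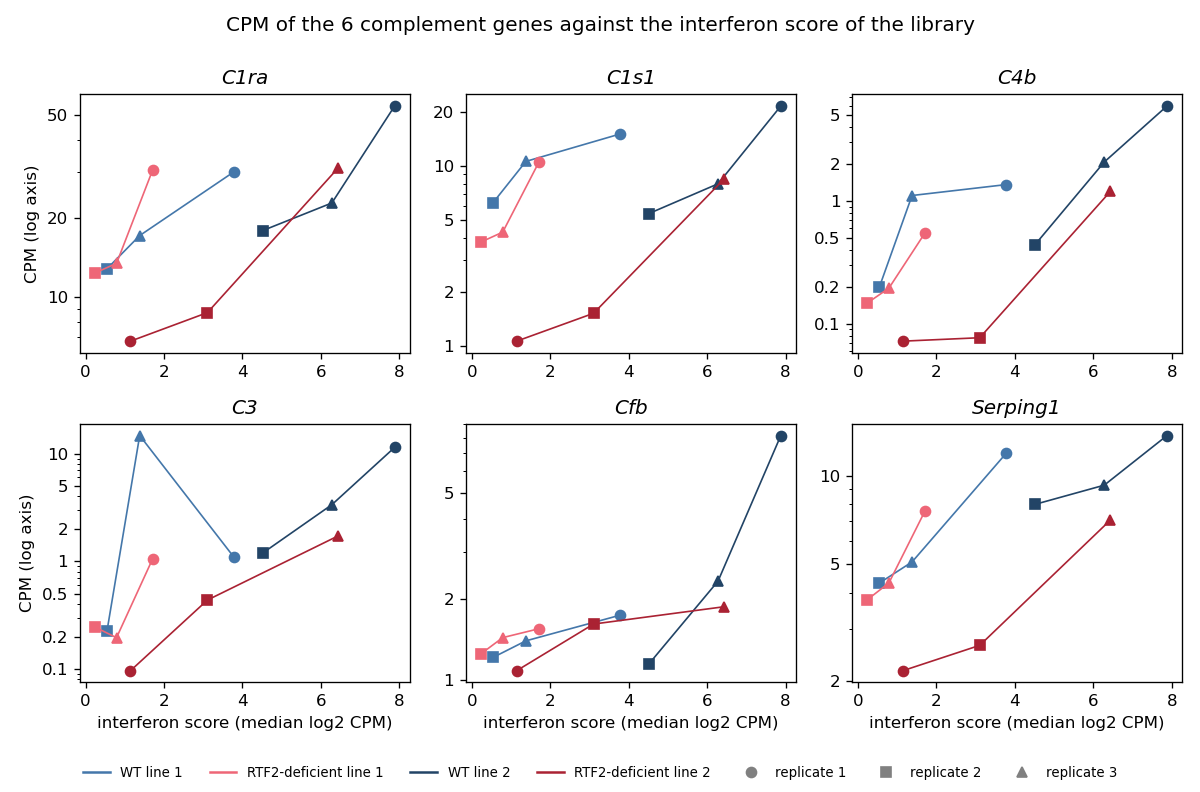
Level of each member, in CPM on a log axis, against the interferon score of the library, a median of log2 CPM. In every group the library with the highest score had the highest level for C4b, C1ra, C1s1, Cfb and Serping1, and C3 in WT line 1 replicate 3 lies apart at 14.7 CPM.

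Given per length, so that genes can be compared, C1ra was the most abundant member with a median of 5.89 CPM per kb over the 12 libraries (2.27 to 18.1). Serping1 followed with 3.44 (1.22 to 7.77), C1s1 with 2.42 (0.359 to 7.36), Cfb with 0.544 (0.394 to 2.97), C3 with 0.209 (0.0187 to 2.87) and C4b with 0.0920 CPM per kb (0.0134 to 1.11). The ranges of neighbours in this order overlapped in every case. The lectin-pathway protease Masp1, at 87.3 CPM per kb, and the C1q-binding protein C1qbp, at 105 CPM per kb, were far above all 6, while the classical-pathway protease C2, had a median of 0.0328 CPM per kb, below the medians of all 6.

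The members were then compared with each other over the libraries. Pearson's r of log2 CPM between C1ra and C1s1 was 0.924 over the 12 libraries and 0.990 on deviations from the group means, and between C1ra and Serping1 it was 0.940 and 0.955. C3 and C4b had 0.870 and 0.792. The lowest values were 0.586 for C1s1 and Cfb over the libraries and 0.507 for C3 and Serping1 on deviations. These are descriptions over 12 libraries that share groups, lines and preparations.

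The genes most like each member were found in the same way, among genes with a mean of at least 1 CPM. Over the 12 libraries they were Aplf (r 0.897), Rsad1 (0.886) and Abraxas1 (0.877) for C3, and Recql5 (0.965), Gsdmd (0.962) and Pcsk7 (0.957) for C4b. C1ra was most like Id1 (0.982), Khnyn (0.963) and Cercam (0.961), and C1s1 most like Kmt5c (0.969), Gtf2ird2 (0.965) and Rbm5 (0.963). Cfb was most like Zfp619 (0.962), Fbxo38 (0.947) and Usp19 (0.947), and Serping1 most like Alg1 (0.970), Aaas (0.966) and Kcp (0.963). No member appears in these lists. On deviations from the group means the closest were Fbxw7 (0.950), Rnf138 (0.918) and Crispld1 (0.905) for C3, and Recql5 (0.986), Iigp1 (0.967) and Cyp2s1 (0.966) for C4b. C1ra and C1s1 were each other's closest gene, followed by Gadd45g (0.989) and Trim7 (0.988) for C1ra and by Wipi1 (0.984) and Smpdl3b (0.983) for C1s1. Cfb was closest to Tmem184b (0.982), Plagl1 (0.978) and Vcpip1 (0.976), and Serping1 to Fndc10 (0.991), Hax1 (0.988) and Gal3st4 (0.987).

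Of 60 listed complement genes 59 were in the table, 5 of these had no read, and 27 were tested. The classical and lectin list had 9 of 20 tested, the alternative list 3 of 4, the regulators 9 of 19 and the receptors 6 of 10. The 7 genes of the terminal pathway, which builds the membrane attack complex, had 0 tested and summed to at most 0.521 CPM in any library. Several early components were as low, with C1qa at most 0.142 CPM and Mbl1, Fcnb and Cfd without a read, genes named after their values were seen.

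Sizes of changes are log2 fold changes. By genotype 2 of the 27 fell and 1 rose in edgeR, with a median log2 fold change of −0.14, and DESeq2 passed 5. The edgeR shares of the list were below the 8.18% of all genes tested that were lower and the 4.98% that were higher in edgeR. C2, the protease that pairs with C4, fell by 2.18 (adjusted p 0.0499) and C1rl, a protease related to C1r, fell by 1.26 (adjusted p 0.0294). Cd93, a receptor of endothelial and myeloid cells, rose by 0.96 (adjusted p 0.0334). Single libraries decided these calls. Of 12 fits that left out a library, C2 passed only without WT line 2 replicate 2. C1rl was lost in 8 and passed without WT line 1 replicate 3, RTF2-deficient line 1 replicate 1, WT line 2 replicate 3 or RTF2-deficient line 2 replicate 3. Cd93 was lost in 8 and passed without RTF2-deficient line 1 replicate 1, WT line 2 replicate 1, WT line 2 replicate 3 or RTF2-deficient line 2 replicate 3. All 3 calls were lost with the interferon score as a term. C2 measured 0.0717, 0.0248 and 0.0965 CPM in WT line 1, 0.0239, 0 and 0.0488 CPM in RTF2-deficient line 1, 1.72, 0.176 and 0.543 CPM in WT line 2, and 0.120, 0.0770 and 0.249 CPM in RTF2-deficient line 2, and the genotypes overlapped in both lines. C1rl measured 2.58, 2.23 and 0.941 CPM in WT line 1, 1.65, 0.932 and 0.731 CPM in RTF2-deficient line 1, 5.45, 4.56 and 3.26 CPM in WT line 2, and 1.23, 0.795 and 2.06 CPM in RTF2-deficient line 2, and the genotypes overlapped in line 1 but not in line 2. Cd93 measured 0.430, 0.446 and 0.507 CPM in WT line 1, 0.549, 1.30 and 1.44 CPM in RTF2-deficient line 1, 0.890, 0.485 and 0.850 CPM in WT line 2, and 1.28, 1.44 and 0.904 CPM in RTF2-deficient line 2, with the RTF2-deficient libraries above the WT libraries in each line.

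Taken by line, 0 of the 27 passed in line 1 in edgeR, beside 2.52% of all genes lower and 0.68% higher. In edgeR 2 were at an unadjusted p under 0.05, beside 13.9% of all genes. DESeq2 passed 0 there, beside 4.22% of all genes lower and 1.82% higher, and the median was −0.09. In line 2 the median was −0.50, and of all genes 7.03% passed as lower and 5.42% as higher in edgeR. There C1rl fell by 1.70 (edgeR adjusted p 0.0305), a call lost without WT line 2 replicate 1 or 2 or RTF2-deficient line 2 replicate 1 or 2, and the anaphylatoxin receptor C3ar1 rose by 1.82 (adjusted p 0.027), lost without any WT line 2 library or RTF2-deficient line 2 replicate 1 or 2. Both were lost with the interferon score as a term.

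Some regulators differed between the lines, while Cr1l, Cd59b, Susd4, Clu and Serping1 passed in edgeR neither between the WT lines nor between the RTF2-deficient lines. Of all genes 7.31% were lower and 6.7% higher in line 2 between the WT lines in edgeR, and 0.841% and 1.09% between the RTF2-deficient lines. Between the WT lines the decay-accelerating factor Cd55 was higher by 2.52 in line 2 (edgeR adjusted p 0.000272) and the membrane attack inhibitor Cd59a higher by 1.51 (adjusted p 0.00512), each kept under all 19 alternatives. The protease C2, which is not a regulator, was 3.60 higher (adjusted p 0.0194, lost without WT line 1 replicate 1 or 2 or WT line 2 replicate 1). C4bp, the C4b-binding protein, was 1.29 lower (adjusted p 0.0351, lost without WT line 1 replicate 2 or 3 or WT line 2 replicate 1 or 3). The calls of C2 and C4bp were lost with the interferon score as a term. Between the RTF2-deficient lines Cd55 was 2.04 higher in line 2 (adjusted p 0.00518, kept under all 19), Cd59a 1.33 higher (adjusted p 0.0414, kept under 7 of 19 alternatives and, of the 12 that left out a library, in those without RTF2-deficient line 1 replicate 1 or WT line 2 replicate 1) and C4bp 1.76 lower (adjusted p 0.0388, kept under 8 of 19 and, of the 12, in those without WT line 1 replicate 1 or 2 or WT line 2 replicate 1). Cd55 measured 0.645, 0.917 and 0.796 CPM in WT line 1 and 4.52, 3.42 and 5.60 CPM in WT line 2, with 0.525, 0.638 and 1.05 CPM and 2.38, 3.72 and 3.03 CPM in the RTF2-deficient lines. Clusterin, Clu, followed the order of the interferon score in 4 of 4 groups, with 11.8, 5.18 and 7.55 CPM in WT line 1 and 20.3, 5.47 and 7.98 CPM in WT line 2. Clu was named after its values were seen.

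Genes that act upstream of complement transcription were examined as well. Of 20 listed factors and receptors 3 fell by genotype and 0 rose in edgeR, and DESeq2 passed 6, beside 8.18% of all genes tested that were lower in edgeR. The interferon-receptor kinase Tyk2 fell by 1.34 (adjusted p 2.92e-05), from 22.6, 23.1 and 21.5 CPM to 10.7, 9.39 and 9.26 CPM in line 1 and from 29.9, 24.0 and 25.2 CPM to 7.43, 8.47 and 12.1 CPM in line 2. Every RTF2-deficient library was below every WT library for Tyk2, and it also passed in each line. The interleukin-1 receptor Il1r1 fell by 0.49 (adjusted p 0.0226, lost without WT line 2 replicate 3 or RTF2-deficient line 2 replicate 1 or 2) and the TNF receptor Tnfrsf1a fell by 0.20 (adjusted p 0.041, kept under 9 of 20 alternatives and, of the 12 that left out a library, in those without WT line 1 replicate 2 or 3, RTF2-deficient line 1 replicate 1 or RTF2-deficient line 2 replicate 3). Both were lost with the interferon score as a term. The gene of this list with most reads, the cytokine receptor subunit Il6st, ran from 337 to 588 CPM. Tyk2, Il1r1 and Tnfrsf1a were named after their values were seen.

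Of the 25 interferon-stimulated genes 0 passed by genotype in edgeR, with 3 at an unadjusted p under 0.05 and 2 by DESeq2, and the median was −1.68. Between the WT lines 13 of 25 were higher in line 2 in edgeR and DESeq2 passed 25, with a median of 4.74, beside 6.7% of all genes higher in edgeR. Of 15 tested interferon-gamma type genes 0 passed by genotype in edgeR, with 1 at an unadjusted p under 0.05 and 0 by DESeq2. Between the WT lines 5 of these were higher in line 2 in edgeR, beside 6.7% of all genes. DESeq2 passed 13 there, beside 9.01% of all genes higher by that tool. The most abundant, B2m of the class I molecule, ran from 294 to 1698 CPM. Of 15 tested acute-phase and NF-kB genes 4 fell and 0 rose by genotype in edgeR, beside 8.18% of all genes lower and 4.98% higher. The list was led in reads by Ptx3 (47.2 to 319 CPM). The 4 that fell were Cxcl1 (−1.54, edgeR adjusted p 0.00834), Nfkb2 (−0.32, 0.0115), Nfkbia (−0.33, 0.0127) and Cxcl5 (−2.87, 0.0347). DESeq2 passed 5 of the list, beside 9.85% of all genes lower and 9.09% higher by that tool. Nfkb2 was lost with 3 libraries dropped together. The call of Cxcl5 was kept under 7 of 20 alternatives and, of the 12 that left out a library, in those without WT line 1 replicate 1 or 2, WT line 2 replicate 1 or RTF2-deficient line 2 replicate 3. It was lost with the interferon score as a term and with 3 libraries dropped together, and DESeq2 gave it no adjusted p. These were named after their values were seen, and Nfkb2 and Nfkbia are NF-kB subunit and inhibitor genes.

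Cell type markers were counted by genotype as well. By genotype 28.5% of all genes were at an unadjusted p under 0.05 in edgeR, and DESeq2 passed 9.85% of all genes as lower and 9.09% as higher. Fibroblast markers passed by genotype in 0 of 10, with 1 at an unadjusted p under 0.05 in edgeR and 1 by DESeq2. Macrophage markers passed in 0 of 4 tested of 13, with 1 at an unadjusted p under 0.05 and 0 by DESeq2, but Cd68 passed as lower in RTF2-deficient line 2 and as higher in WT line 2 than in WT line 1. Hepatocyte markers passed in 0 of 2 tested of 8, with 1 at an unadjusted p under 0.05 in edgeR. DESeq2 passed 1 of them as higher, Apob, at 0 to 1.95 CPM over the libraries. Endothelial markers had 1 of 2 tested of 6 higher in edgeR and DESeq2, Kdr, beside 4.98% of all genes higher in edgeR. Kdr had most reads of that list (6.71 to 15.2 CPM), while Pecam1 reached at most 0.113 CPM. The other one tested, Tek, was below 0 by genotype. It measured 6.58, 6.15 and 5.41 CPM in WT line 2 against 2.84, 2.87 and 5.06 CPM in RTF2-deficient line 2. In line 1 it measured 7.88, 3.39 and 4.82 CPM in WT against 12.5, 5.71 and 7.49 CPM in RTF2-deficient MEFs. Epithelial markers had 2 of 6 higher in edgeR, Cldn4 and Krt18, beside the same 4.98% of all genes. DESeq2 passed 1 of the 6, Krt18, and 3 of the 6 had a log2 fold change below 0. The keratin Krt19 led this list in reads with 19.3 to 83.5 CPM, while Epcam reached at most 0.308 CPM. Apob, Tek, Cldn4 and Krt18 were named after their values were seen. The part of other cell types in the complement levels was not tested.

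The members lie on 3 chromosomes of GRCm38. C1ra (chr6:124512621-124523440) and C1s1 (chr6:124530344-124542392) are neighbours, on opposite strands, beside the copies C1rb and C1s2. C4b (chr17:34728139-34743902) and Cfb (chr17:34856374-34862514) lie in the histocompatibility region with C4a and C2, and C3 (chr17:57203967-57228136) and Serping1 (chr2:84765360-84775444) lie apart. Copies can share reads, so 75-base windows of each transcript were looked up in the others. C1ra shared 1166 of 2907 windows (40.1%) with C1rb, C4b 1248 of 5305 (23.5%) with C4a, and C1s1 421 of 2872 (14.7%) with C1s2. Cfb shared 0 with C2, and 2174 of 2677 windows (81.2%) with Gm20547, a gene model on the same strand that has no entry in the table. C3 and Serping1 shared none. Over the 12 libraries C1rb held 19 reads, beside 11093 for C1ra, and C1s2 held 11, beside 4159 for C1s1. C4a held 144, beside 589 for C4b, and in RTF2-deficient line 2 replicates 1 and 2 it had 14 and 9 reads against 3 and 3 for C4b. With the reads of C4a and C4b added together, the difference by genotype did not pass either (edgeR adjusted p 0.112). An antisense gene model, Gm16567, covers 11400 bases of C1s1 on the opposite strand, and since the strandedness of the libraries is not given in the sources used here, reads of the sense and antisense genes cannot be told apart.

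Promoters were taken from RefSeq GRCm38.p6 for 3 of the 6 members, C3, C1ra and C1s1. The table had no entry for C4b, Cfb and Serping1. The 250 bases before the start of C3 (chr17:57228137-57228386, minus strand) are shown 5′ to 3′ because C3 had the most negative fold change by genotype and the widest spread of the members, with matches to the searched motifs in capitals.
C3: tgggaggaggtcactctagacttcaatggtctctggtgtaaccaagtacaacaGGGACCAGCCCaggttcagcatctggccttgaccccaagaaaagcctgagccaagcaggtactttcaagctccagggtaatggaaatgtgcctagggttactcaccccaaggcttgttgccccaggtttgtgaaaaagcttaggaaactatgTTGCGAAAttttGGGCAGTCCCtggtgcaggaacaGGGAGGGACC
Motifs were searched on both strands, and positions count from −1 at the base before the start. The C/EBP motif TTGCNNAA, where N is any base, matched C3 at −45 to −38 and C1s1 at −242 to −235, and 9.56% of 32851 promoters hold it. The NF-kB motif, GGG, any 5 bases and CC, matched C3 at −197 and −196 (overlapping), −33 and −10, and 45.8% of promoters hold it. The STAT motif TTCNNNGAA (7.02% of promoters), the ISRE core of GAAA, any 2 bases and GAAA (2.98%) and the AP-1 motif TGANTCA (6.75%) did not match C3, C1s1 or C1ra, and C1ra matched none of the 5. Of the 250 bases before the RefSeq start of C1ra, 216 lie in annotated exons, against 0 for C3 and C1s1. The last 99 bases before the C1ra start were 93.9% identical (93 of 99) to a stretch of the C1rb promoter.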

How the data were processed

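The deposited counts are raw, whole numbers of reads per gene made by the authors, with no normalization, and single-end reads. The methods name Salmon with tximport on UCSC mm10 transcripts, the submitters' notes HTSeq on mm10, and which made the counts is not settled. Of 24100 Entrez identifiers 24045 were matched to RefSeq symbols. Genes with low counts were dropped by filterByExpr on the 4 groups, and 14263 were tested with edgeR 4.0.16 quasi-likelihood fits on TMM-scaled counts (R 4.3.3, limma 3.58.1), with Benjamini-Hochberg adjustment over all of them and a gene passing at an adjusted p under 0.05. The genotype comparison had terms for line and genotype, and the others used the 4 groups. Standard errors are those implied by the F statistic. Correlations used log2 CPM with a prior count of 2. Alternatives were RLE scaling, no filter, DESeq2 1.42.0, a replicate block, the interferon score as a term, copies added together, each library left out, triplicates summed, and, chosen after seeing the data, 3 libraries dropped together.

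Named genes are the members, Rtf2, the copies C4a, C1rb and C1s2 and the neighbour C2, complement genes passing in any of 6 comparisons (at most 12), the most abundant gene of each other list and the 3 genes most like each member by each measure. The results of 1 gene under this rule are not reported here. Other names were chosen after their values were seen, whether or not that is said beside them. The lists cover 5 complement groups, interferon-stimulated, interferon-gamma type, acute-phase and NF-kB genes, upstream factors and receptors, and markers of fibroblasts, macrophages, hepatocytes, endothelium and epithelium. The members and lists were chosen with earlier results of these data known. Sequences were read with Biopython 1.88 and plots drawn with matplotlib 3.10.9.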

Additional observations from a re-analysis of the deposited data

Results flagged for a closer look

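Among 12 sets of 6 libraries, each gene taken by genotype, 2 held a library far from the others, by a gap, as a share of the range of the set, above Dixon's critical value. C4b in the WT libraries measured 5.95 CPM in WT line 2 replicate 1, with the nearest at 2.08 CPM, a gap of 0.673 of the range. Cfb in the WT libraries measured 8.16 CPM in the same library, with the nearest at 2.34 CPM, a gap of 0.830. Chance gives such a library in about 5% of sets of 6 values from 1 normal distribution. Each set here joined 3 technical replicates from each of 2 lines, so that share may not hold for them. The gaps were also taken on CPM and not on log2 CPM, and a gap above the critical value on CPM need not be above it on the log2 scale. The same library had the highest interferon score of all 12, 7.88, and the part of that in the levels was not tested.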

How the results depend on the processing

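Of the counts of members passed under alternatives, 219 stayed within 1.5 times the count reported and 11 moved. The log2 fold changes counted were those of the members in every comparison and those of Rtf2 and other named genes that had passed. Of these, 986 kept direction and side of the threshold, 17 newly passed, 129 no longer passed and 42 turned direction. No member had passed in edgeR with all libraries, so the 129 were calls of other genes. By genotype, DESeq2 passed 2 members as lower (C3 −3.12, adjusted p 0.011; C4b −2.12, adjusted p 0.0306), and leaving out a library passed 0 to 1, with C3 from −3.75 to −1.89. In line 2 the count lower was 1 by DESeq2, 1 with a replicate block (Serping1, adjusted p 0.0493), 2 with 3 libraries dropped together (C1s1, Serping1) and 0 to 4 leaving out a library. With the interferon term 4 members passed as lower between WT lines and 3 between RTF2-deficient lines, and leaving out a library passed 0 to 1 as higher between WT lines. With that term 2791 of all 14263 genes passed in either direction between WT lines and 1340 between RTF2-deficient lines, against 1998 and 276 without it.

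With the interferon score as a term the direction turned by genotype for C1ra (0.21) and Cfb (0.0785), in line 1 for C1ra (0.36), Cfb (0.29) and Serping1 (0.0011), between WT lines for C4b (−2.54), C1ra (−1.35), C1s1 (−2.49), Cfb (−0.19) and Serping1 (−0.90), and between RTF2-deficient lines for C3 (−1.73), C4b (−2.82) and Cfb (−0.76). With the replicate block C3 turned in the interaction (−0.50) and between WT lines (0.74). Over 9281 genes the deviations of same-numbered WT and RTF2-deficient libraries correlated at 0.842, 0.768 and 0.804 in line 1 and at −0.762, 0.216 and −0.400 in line 2, and 6 of 6 libraries of line 1 but 0 of 6 of line 2 correlated best with their own number. The labels give no source for the numbers, which were not taken as pairs. Between same-numbered libraries of line 1 the RTF2-deficient value was lower in 3 of 3 for C4b, C1s1 and Serping1, in 2 of 3 for C3 and C1ra and in 1 of 3 for Cfb. With the block the calls of Cd93, Nfkbia and Cxcl5 by genotype, of C4bp between WT lines and of C4bp and Cd59a between RTF2-deficient lines also missed the threshold. With WT line 1 replicate 3, WT line 2 replicate 1 and RTF2-deficient line 2 replicate 3 dropped together, chosen after seeing the data, C3 turned in the interaction (−2.67), between WT lines C3 (1.75), C1ra (−0.0886) and C1s1 (−0.69), and between RTF2-deficient lines C3 (−0.92), C4b (−1.97) and Cfb (−0.0772).

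Leaving out each library in turn gave ranges that crossed 0 in line 1 for C1ra (−0.64 to 0.34), Cfb (−0.16 to 0.12) and Serping1 (−0.82 to 0.16), in the interaction for C3 (−2.39 to 1.83) and C4b (−3.60 to 0.12), between WT lines for C3 (−1.25 to 2.98) and C1s1 (−0.68 to 0.47), and between RTF2-deficient lines for C3 (−0.93 to 1.76), C4b (−1.97 to 1.39), C1ra (−1.29 to 0.26) and Cfb (−0.0772 to 0.30). With triplicates summed 0 of 14263 genes passed in edgeR, with 2737 at an unadjusted p under 0.05. The cause was not tested in any of these cases.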
